A study of Marchantia polymorpha subsp. ruderalis with 24 samples.

Results

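The genes followed in Marchantia polymorpha were 2 of the ATG8 family, 1 of the autophagy lipid kinase and 1 peroxin: MpATG8a (Mp1g21590), MpATG8b (Mp5g05930), MpATG14 (Mp1g00090) and MpPEX11b (Mp1g26710). They are 4 of the 20574 genes in the deposited count table, taken from it by their identifiers, and all 4 had enough counts to be among the 14414 genes tested. The genes were chosen by their measured levels in these same libraries, with earlier results in view. Which contrast singled them out is not recorded, so every level and difference of the 4 is a description and carries no test. Tests are given for other autophagy and peroxisome genes.

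Autophagy carries parts of the cytoplasm to the vacuole inside a double membrane, the autophagosome, and plants are known to use it to recycle material when nutrients or energy run short. ATG8 is a small ubiquitin-like protein that is joined to a lipid of the growing membrane, where it recruits receptors and their cargo. ATG14 is a subunit that brings the lipid kinase VPS34 to the site where the membrane forms, as known from yeast and animals. Peroxisomes are organelles of photorespiration and fatty acid breakdown, and proteins of the PEX11 family elongate and divide them. Damaged peroxisomes are among the cargoes of autophagy in flowering plants.

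The plants were wild-type males of the accession Takaragaike-1 (Tak-1), a liverwort whose main body is a flat haploid thallus. They grew from gemmae, clonal propagules, at 20 °C under 12 h of light a day and were then kept in constant light. Young thallus was sampled at 24, 30, 36, 42, 48, 54, 60 and 66 h after the move, with 3 libraries at each time. There was no group kept in light and dark cycles, so time in constant light, plant age and time since plating cannot be told apart. The labels do not say whether replicates were separate cultures, and if they were not, the spread behind each p-value may be technical.

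The 24 libraries held 14929708 to 59194999 counts. Levels are CPM, the counts scaled to a common library size, with TMM factors that even out differences in composition between libraries. The gene MpVg01240, placed by its identifier on the male V chromosome, alone took 7.22%, 4.44% and 4.27% of the counts in replicate 3 of 24, 30 and 66 h, against 0.301 to 2.39% in the other libraries, and day calls of list genes that change without these 3 are given with those genes. The 4 thallus markers found, which included MpRBCS of the small Rubisco subunit, summed to 827 to 1230 CPM in the 12 libraries of the second day (48 to 66 h) and to 862 to 1340 CPM in the 12 of the first day (24 to 42 h). The 6 markers of male organs and sperm summed to 4.54 to 7.68 CPM on the second day and 4.38 to 6.64 CPM on the first. Among them MpBNB was at 0 in 23 libraries, the sperm protamine gene MpPRM in 19 and MpLC7 in 13. The others were above 0 in every library, with means of 3.77 CPM for MpDAZ1, 1.24 CPM for MpTUA5 and 0.575 CPM for MpDUO1. On the second day the gemma cup pair MpGCAM1 and MpKAR summed to 48.8 to 78.3 CPM, against 58.1 to 77.0 CPM on the first. Members of these lists moved apart: MpGCAM1 averaged 10.3 CPM on the second day and 6.79 CPM on the first, and MpKAR 52 CPM on the second and 61.6 CPM on the first. MpRBCS averaged 287 CPM on the second day and 223 CPM on the first, and the chlorophyll synthesis gene MpCHLI1/2-like 407 CPM on the second and 482 CPM on the first. The rhizoid regulator MpRSL1 lay at 15.2 to 27.0 CPM on the second day and 20.1 to 27.4 CPM on the first. Of the female list, MpRKD, known from egg cells and also from gemma cups, lay at 149 to 196 CPM. These plants were male, so MpRKD did not mark female organs here. MpFGMYB, of the same list, averaged 5.84 CPM on the second day and 3.22 CPM on the first. The part of other cell types in the levels below was not tested, and in these bulk samples a change in the share of a cell type and in RNA per cell cannot be told apart.

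MpATG8a climbed through the series, with a pause at 54 h. In replicates 1, 2 and 3 its level was 109, 97.6 and 107 CPM at 24 h, 96.8, 111 and 107 CPM at 30 h, 151, 116 and 145 CPM at 36 h, and 139, 201 and 144 CPM at 42 h. On the second day it was 164, 197 and 170 CPM at 48 h, 158, 174 and 142 CPM at 54 h, 208, 192 and 204 CPM at 60 h, and 205, 243 and 183 CPM at 66 h. The 6 libraries of 24 and 30 h lay below the other 18. By mean level the order from the top was 66, 60, 48, 42, 54, 36, 30 and 24 h, and the only neighbours in that order whose libraries did not overlap were 36 and 30 h. The days overlapped: 4 of the 12 second-day libraries lay above all of the first day, and 8 of the 12 first-day libraries below all of the second.

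MpATG8b, the other ATG8 gene, climbed further. Its level was 60.1, 64.4 and 62.8 CPM at 24 h, 80.9, 82.8 and 69.8 CPM at 30 h, 109, 103 and 105 CPM at 36 h, and 99.6, 143 and 108 CPM at 42 h. On the second day it was 103, 144 and 104 CPM at 48 h, 132, 125 and 125 CPM at 54 h, 163, 193 and 143 CPM at 60 h, and 164, 171 and 131 CPM at 66 h. The first 3 times formed separate steps, since the libraries of 24, 30 and 36 h did not overlap with each other. Above them the order of means was 60, 66, 54, 48 and 42 h, and neighbours in that order overlapped. At 66 h the mean was 155 CPM against 62.4 CPM at 24 h, a fitted 2.49 fold, while for MpATG8a the means were 210 CPM at 66 h and 105 CPM at 24 h, 2.00 fold.

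The balance of the ATG8 pair also varied with time. Within each library, which leaves out any scaling, there were 0.550, 0.660 and 0.585 counts of MpATG8b for each count of MpATG8a at 24 h and 0.625, 0.731 and 0.612 at 48 h. The other 6 times had 0.653 to 1.00 with a median of 0.736, against a median of 0.618 over 24 and 48 h. These times were set apart after their values were seen, so no test is given. Of the 6 libraries of 24 and 48 h, 4 lay below all 18 of the other times and 2 did not. The ratio was thus lowest, by mean, at a pair of times 24 h apart, 0.598 ± 0.056 at 24 h and 0.656 ± 0.065 at 48 h (SD, n = 3). It was highest at 60 h with 0.828 ± 0.16, where replicate 2 stood at 1.00 and the others at 0.783 and 0.697.

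**Figure D1:**
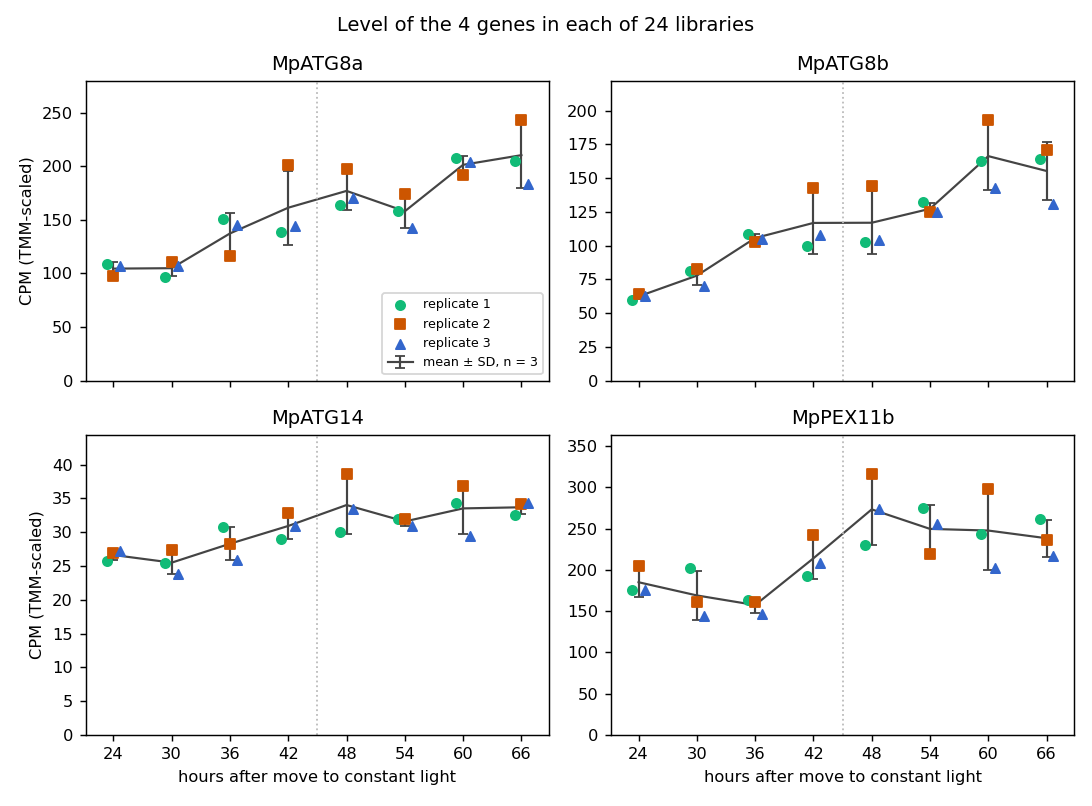
TMM-scaled CPM of MpATG8a, MpATG8b, MpATG14 and MpPEX11b (1 panel each, vertical axes from 0) against hours after the move to constant light. Symbols are the 3 replicates, the line joins means with SD bars (n = 3), and the dotted line parts the days; both ATG8 genes climb to 60 and 66 h, while MpPEX11b is lowest at 36 h (157 CPM) and highest at 48 h (273 CPM).

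**Figure D2:**
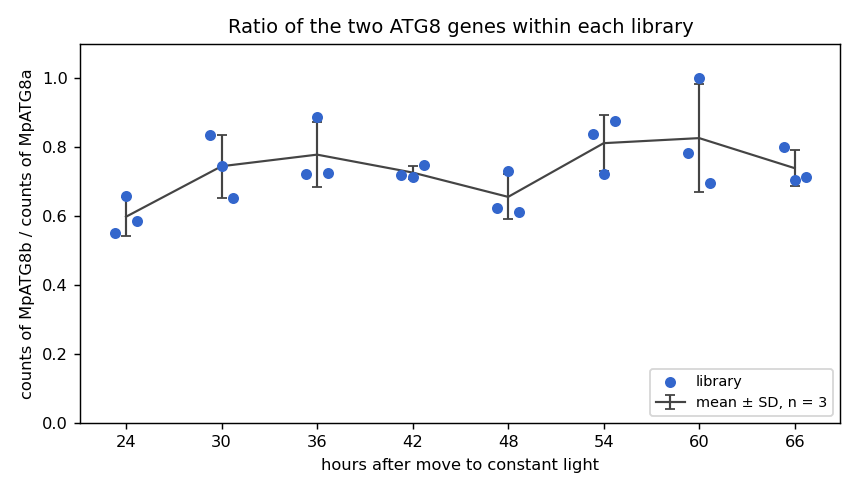
Counts of MpATG8b divided by counts of MpATG8a in each library (points) against hours after the move to constant light, with the mean and SD of 3 libraries. The means of 24 h (0.598) and 48 h (0.656) are the lowest of the 8 times.

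MpATG14, the lipid kinase subunit, moved over a narrower range. Its level was 25.7, 27.0 and 27.2 CPM at 24 h, 25.4, 27.3 and 23.8 CPM at 30 h, 30.8, 28.2 and 25.9 CPM at 36 h, and 29.0, 32.9 and 30.9 CPM at 42 h. On the second day it was 30.0, 38.6 and 33.5 CPM at 48 h, 32.0, 31.9 and 30.9 CPM at 54 h, 34.4, 36.8 and 29.4 CPM at 60 h, and 32.6, 34.2 and 34.3 CPM at 66 h. From 48 h on the means lay between 31.6 and 34.0 CPM, and neighbours in the order of all 8 means overlapped. Of the 12 first-day libraries 9 lay below all of the second day, and 6 of the 12 second-day libraries above all of the first. Its counts were 465 to 1927 per library.

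MpPEX11b, the peroxisome division gene, had another course. Its level was 175, 205 and 175 CPM at 24 h, 202, 161 and 144 CPM at 30 h, 164, 161 and 147 CPM at 36 h, and 192, 242 and 208 CPM at 42 h. On the second day it was 230, 316 and 274 CPM at 48 h, 275, 219 and 255 CPM at 54 h, 243, 298 and 202 CPM at 60 h, and 262, 236 and 217 CPM at 66 h. It was thus lower at 36 h than at 24 h, by 0.23 ± 0.15 (SE) on the log2 scale, with no overlap of libraries. The ATG8 genes stood higher at 36 h than at 24 h, by 0.39 ± 0.13 for MpATG8a and 0.76 ± 0.14 for MpATG8b. Replicates of MpPEX11b were wide apart at 48 and 60 h (SD 43 and 48 CPM), and all neighbours in the order of its means overlapped.

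Set against the same hour a day earlier, all 4 genes had the higher mean at each of the 4 phases. For MpATG8b the log2 difference was 0.91 ± 0.14 (SE) at 48 against 24 h, 0.71 ± 0.14 at 54 against 30 h, 0.65 ± 0.14 at 60 against 36 h and 0.41 ± 0.14 at 66 against 42 h. For MpATG8a the same differences were 0.76 ± 0.13, 0.59 ± 0.13, 0.55 ± 0.13 and 0.38 ± 0.13. Those of MpATG14 were 0.35, 0.31, 0.25 and 0.12, each ± 0.10. MpPEX11b kept a difference of 0.56 ± 0.15, 0.56 ± 0.15 and 0.65 ± 0.15 over the first 3 phases and had 0.16 ± 0.15 at the last. At 66 against 42 h the libraries overlapped for each of the 4 genes, and at the first 3 phases they were apart except for MpATG14 at 60 against 36 h. Replicate 2 of 42 h, with the highest level of its time in all 4 genes, is 1 of the libraries at that last phase. The share of all tested genes with a higher mean at each phase, or with libraries apart, was not counted.

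Averaged over the phases, the fitted difference of the second day from the first was largest for the ATG8 genes. It was 0.67 ± 0.07 (SE, log2) for MpATG8b, with 141 CPM on the second day and 90.7 CPM on the first, and 0.57 ± 0.07 for MpATG8a, with 187 CPM on the second day and 127 CPM on the first. It was 0.48 ± 0.07 for MpPEX11b, with 252 CPM on the second day and 181 CPM on the first. For MpATG14 it was 0.26 ± 0.05, with 33.2 CPM on the second day and 27.8 CPM on the first. The median over all tested genes was 0.01. On leaving out any 1 library, or under the other settings tried, the difference lay between 0.62 and 0.71 for MpATG8b, 0.54 and 0.62 for MpATG8a, 0.44 and 0.52 for MpPEX11b and 0.23 and 0.28 for MpATG14.

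A 24 h rhythm was fitted as a cosine and a sine beside a straight line in time, and its size is the log2 difference between fitted peak and trough. It was 0.43 ± 0.12 (SE) for MpPEX11b with a peak at 0.801 h, counted in hours after the move modulo 24 h. It was 0.32 ± 0.11 for MpATG8b with a peak at 13.4 h, 0.24 ± 0.11 for MpATG8a with a peak at 17.9 h, and 0.11 ± 0.07 for MpATG14. The median over all tested genes was 0.26. The peaks are those of the fit with the line alone, from times 6 h apart, and no error of a peak is given. The fitted sizes depended on how the climb was modelled. With a step between the days in place of the line they were 0.77 for MpATG8b and 0.59 for MpATG8a, but 0.23 for MpPEX11b. With no drift term they were 0.72, 0.56 and 0.21, and with line and step together 0.43 for MpATG8b, 0.51 for MpATG8a and 0.27 for MpPEX11b. MpATG14 had 0.19 with the step, 0.18 with no drift term and 0.21 with both. Without replicate 2 of 42 h the size for MpATG8a was 0.15. The line itself rose by 0.66 ± 0.07 per 24 h for MpATG8b, 0.55 ± 0.07 for MpATG8a, 0.47 ± 0.08 for MpPEX11b and 0.24 ± 0.05 for MpATG14.

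Over the 24 libraries Pearson's r of log2 CPM was 0.91 between the ATG8 genes (Spearman's rho 0.91), 0.84 between MpATG8a and MpATG14 and 0.83 between MpATG8b and MpATG14. It was 0.84 between MpATG14 and MpPEX11b, and 0.65 and 0.67 between MpPEX11b and MpATG8a and MpATG8b. These libraries share the climb over time. Once the mean of each time was taken away, r was 0.78 between MpATG8b and MpPEX11b, 0.73 between MpATG8b and MpATG14, 0.68 between MpATG14 and MpPEX11b and 0.60 between the ATG8 genes. It was lower for MpATG8a with the other pair, 0.34 with MpATG14 and 0.09 with MpPEX11b. Replicate 2 had the highest level of all 4 genes at 42 h and at 48 h, and replicate 1 at 36 h. All r values here are descriptions of libraries that share depth, scaling and the tissue taken.

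Autophagy genes other than the 3 described rose widely between the days. Of 21 such genes, 15 were higher on the second day and 0 lower (edgeR adjusted p under 0.05), against 18.3% of all tested genes higher and 16.3% lower. At an unadjusted p under 0.05 edgeR gave 17 higher and 1 lower, and DESeq2 after adjustment gave 16 and 0. The median log2 difference of the 21 was 0.20, against 0.01 over all tested genes, and 17 of them had the higher mean at all 4 phases. How many of all tested genes had the higher mean at all 4 phases was not counted. Each of the 21 differences was smaller than those of MpATG8a and MpATG8b, the highest being 0.39. The ATG8 genes were chosen by their levels in these same libraries, so this ranking is a description.

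Genes that act before the membrane forms rose by 1.13 to 1.24 fold where called. In the kinase complex that starts autophagy, MpATG101 had 37.9 CPM on the second day and 30.5 CPM on the first (log2 0.31 ± 0.08, edgeR adjusted p = 0.00505). MpATG11, its scaffold, rose by 0.21 ± 0.06 (edgeR adjusted p = 0.00718) and the kinase gene MpATG1 by 0.19 ± 0.06 (edgeR adjusted p = 0.0165). MpATG13 was not called, at 0.15 ± 0.06 (edgeR adjusted p = 0.058). It passed with DESeq2 (adjusted p = 0.046), without the 3 libraries rich in MpVg01240 (edgeR adjusted p = 0.047), and on leaving out replicate 3 of 24 h, 1 of 48 h, 3 of 60 h or 2 of 66 h (edgeR adjusted p = 0.0148 to 0.0359). All 3 partners of MpATG14 in the lipid kinase complex rose. They were MpATG6 (0.30 ± 0.06, edgeR adjusted p = 0.00117), the regulatory subunit gene MpVPS15 (0.21 ± 0.06, edgeR adjusted p = 0.0102) and the kinase gene MpVPS34 (0.18 ± 0.05, edgeR adjusted p = 0.00462).

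Genes that bring membrane to the autophagosome held the 3 largest differences among the 21. MpATG9, a membrane protein carried in vesicles, had 40.7 CPM on the second day and 31.5 CPM on the first (log2 0.37 ± 0.06, edgeR adjusted p = 4.06e-05). Of the ATG18 genes, whose products bind the lipid made by VPS34, MpATG18d rose by 0.39 ± 0.07 (edgeR adjusted p = 0.000124). MpATG18b rose by 0.37 ± 0.06 (edgeR adjusted p = 0.000137) and MpATG18a by 0.32 ± 0.05 (edgeR adjusted p = 6.43e-05). The fourth, MpATG18c, with a mean of only 7.27 CPM, had 0.15 ± 0.09 (edgeR adjusted p = 0.223). The lipid transfer gene MpATG2 had 0.11 ± 0.06 (edgeR adjusted p = 0.173). All called genes of this group had the higher mean at each of the 4 phases.

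Of the 7 genes that join ATG8 to its lipid, 5 rose. MpATG4, the protease that trims ATG8, rose by 0.24 ± 0.04 (edgeR adjusted p = 3.1e-05) and the activating enzyme gene MpATG7 by 0.20 ± 0.04 (edgeR adjusted p = 0.000317). MpATG5 rose by 0.18 ± 0.04 (edgeR adjusted p = 0.00262) and its partner MpATG16 by 0.18 ± 0.06 (edgeR adjusted p = 0.0237). MpATG3, the enzyme that transfers ATG8, was called at 0.22 ± 0.08 (edgeR adjusted p = 0.0306). That call was lost without the 3 libraries rich in MpVg01240 (edgeR adjusted p = 0.0724) and on leaving out replicate 2 of 24 h, 1 of 30 h, 2 of 36 h, 1 or 3 of 42 h, 2 of 54 h, 1 of 60 h or 3 of 66 h (edgeR adjusted p = 0.0528 to 0.0702). MpATG12 had 0.14 ± 0.06 (edgeR adjusted p = 0.0902, but 0.0487 without replicate 1 of 54 h), and MpATG10, at a mean of 3.18 CPM, 0.12 ± 0.13 (edgeR adjusted p = 0.527). The 1 gene of the list with a negative difference was MpTOR, the nutrient kinase that holds autophagy back. It had 97.3 CPM on the second day and 105 CPM on the first (−0.11 ± 0.05, edgeR adjusted p = 0.101), with the lower mean at all 4 phases. The means were close at 48 against 24 h (104 and 105 CPM) and at 54 against 30 h (102 and 104 CPM). They were further apart at 60 against 36 h (92.6 and 105 CPM) and at 66 against 42 h (90.7 and 105 CPM). MpTOR passed the threshold without replicate 3 of 66 h (edgeR adjusted p = 0.0226) and without the 3 libraries rich in MpVg01240 (edgeR adjusted p = 0.0492).

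**Figure D3:**
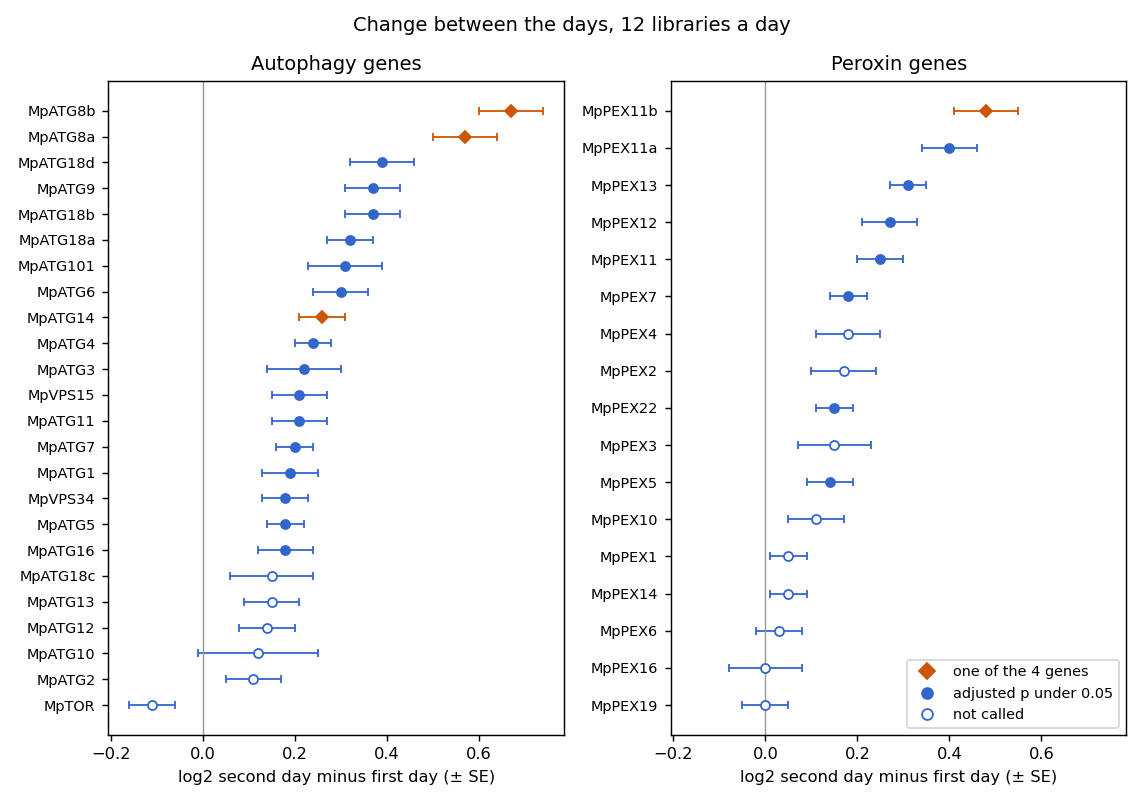
Log2 difference of the second day (48 to 66 h) from the first (24 to 42 h) with its SE for 24 autophagy genes and 17 peroxin genes, 12 libraries a day. Diamonds are the 4 genes, filled circles other genes called (edgeR adjusted p under 0.05) and open circles genes not called; 15 of 21 autophagy and 7 of 16 peroxin circles are filled, and MpTOR is the 1 gene below 0 by more than its SE.

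The other PEX11 genes were among the peroxins that rose. Of 16 peroxin genes other than MpPEX11b, 7 were higher on the second day and 0 lower (edgeR adjusted p under 0.05), against the same 18.3% and 16.3% of all tested genes. At an unadjusted p under 0.05 edgeR gave 9 higher and 0 lower, and DESeq2 after adjustment 8 and 0. The count of higher peroxins was 6 to 10 on leaving out single libraries. MpPEX11a had 12.5 CPM on the second day and 9.45 CPM on the first (log2 0.40 ± 0.06, edgeR adjusted p = 4.23e-05). MpPEX11 had 250.0 CPM on the second day and 211 CPM on the first (0.25 ± 0.05, edgeR adjusted p = 0.000338). The log2 CPM of MpPEX11b followed that of MpPEX11 with r = 0.92 and that of MpPEX11a with r = 0.72 over the 24 libraries.

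Among the import machinery, the docking gene MpPEX13 rose by 0.31 ± 0.04 (edgeR adjusted p = 1.76e-05), with no overlap of libraries at any of the 4 phases. The share of all tested genes without such overlap was not counted. The receptor gene MpPEX7 rose by 0.18 ± 0.04 (edgeR adjusted p = 0.000423), the ubiquitin ligase gene MpPEX12 by 0.27 ± 0.06 (edgeR adjusted p = 0.00224) and MpPEX22, which anchors the enzyme that recycles the receptor, by 0.15 ± 0.04 (edgeR adjusted p = 0.0034). MpPEX5, the main receptor, was called by a narrow margin (0.14 ± 0.05, edgeR adjusted p = 0.0456). Its edgeR adjusted p was 0.0515 with the replicate number as a block, 0.0609 without the 3 libraries rich in MpVg01240 and 0.0635 with no filter on low counts. On leaving out single libraries the call held only without replicate 3 of 24 h, 2 of 42 h, 1 of 48 h, 3 of 54 h, 3 of 60 h, or 1 or 2 of 66 h. In the other 17 cases its adjusted p was 0.0504 to 0.0951. The 9 uncalled peroxins had 0.00 to 0.18. They were MpPEX4 (edgeR adjusted p = 0.0585), MpPEX2, MpPEX3, MpPEX10, MpPEX1, MpPEX14, MpPEX6, MpPEX16 and MpPEX19. MpPEX4 gained a call with DESeq2 (adjusted p = 0.0431) and without the 3 libraries rich in MpVg01240 (edgeR adjusted p = 0.0452). It also gained one on leaving out replicate 1 of 24 h, 2 of 30 h, 3 of 36 h, 2 of 42 h, 2 of 48 h, 2 of 60 h or 3 of 66 h (edgeR adjusted p = 0.0166 to 0.0492). MpPEX2 and MpPEX3 did so without replicate 2 of 42 h (edgeR adjusted p = 0.00704 and 0.0311).

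With the straight line as drift, of the 37 genes of both lists, 1 was called rhythmic (edgeR adjusted p under 0.05), against 18.7% of all tested genes. It was MpATG11, with a size of 0.39 ± 0.09 and a peak at 4.96 h (edgeR adjusted p = 0.00492). Its call was lost with no drift term (edgeR adjusted p = 0.0947) and with line and step together (edgeR adjusted p = 0.261). With the line alone none of the 16 peroxins was called by edgeR or DESeq2, with 2 at an unadjusted p under 0.05 in edgeR. A second gene was called on leaving out replicate 2 of 42 h (MpPEX5), 2 of 48 h (MpATG1) or 2 of 60 h (MpPEX11). With a step between the days in place of the line 9 of the 37 were called, 24.3% against 29.6% of all tested genes. They were MpATG1, MpATG6, MpATG11, MpATG101, MpVPS34, MpATG18a, MpATG18b, MpATG18c and the peroxin MpPEX13. In the test for any difference among the times, 12 of the 21 autophagy genes and 6 of the 16 peroxins passed, against 36.8% of all tested genes.

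**Figure D4:**
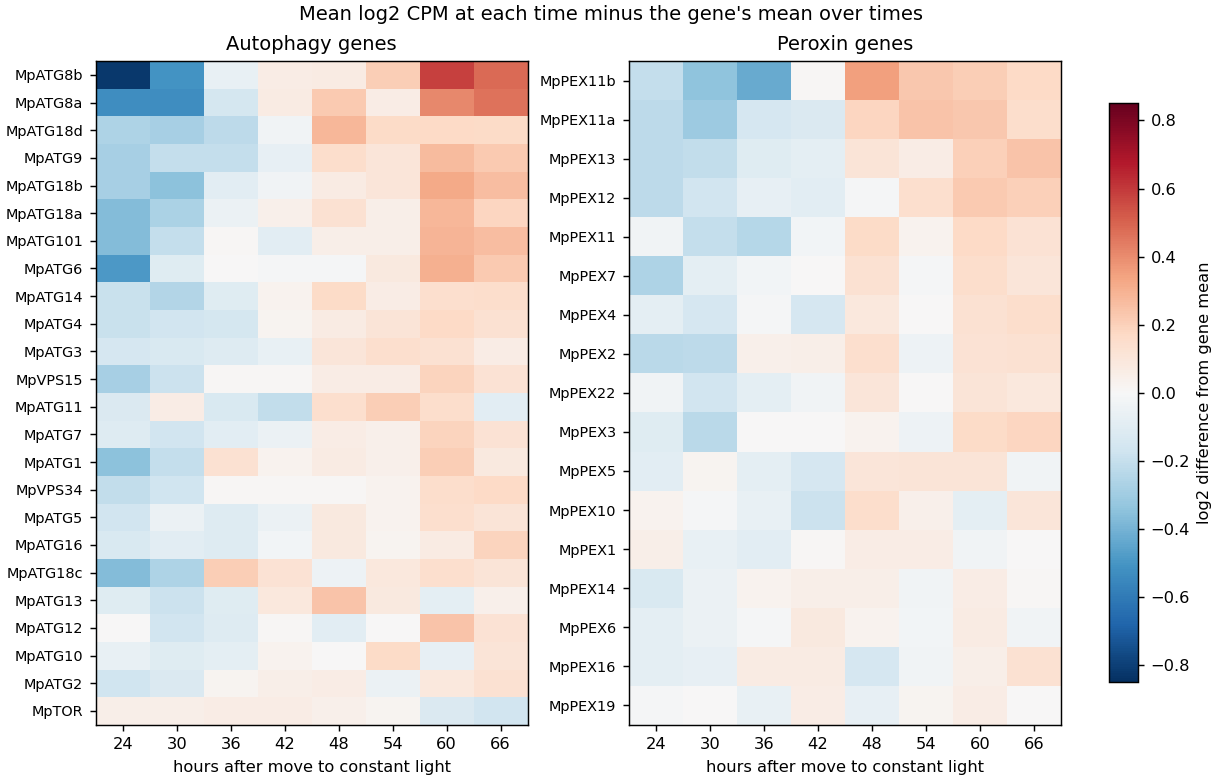
Mean log2 CPM of each gene at each time minus the mean over its 8 times, for 24 autophagy genes (left) and 17 peroxin genes (right), ordered by the difference between the days. Blue is below and red above the gene's own mean; most autophagy rows are blue at 24 and 30 h and red at 60 and 66 h, and the ATG8 rows have the strongest colours.

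Over the 24 libraries MpATG8b had a median r of 0.77 with the 21 other autophagy genes and of 0.57 with the 16 other peroxins, against 0.00 with all tested genes. For MpATG8a these were 0.75, 0.67 and 0.01, for MpATG14 0.67, 0.53 and 0.00, and for MpPEX11b 0.49, 0.47 and −0.01. Among 1800 named genes with a mean of 10 CPM or more, the profiles most like that of MpATG8a were those of MpACOS20 (Mp6g07220, r = 0.947), MpATG18b (0.925) and MpARFLB (Mp3g23070, 0.922). Most like MpATG8b were MpATG18a (0.944), MpCIS4 (Mp6g21480, 0.939) and MpH2B.1 (Mp7g18140, 0.938). Most like MpATG14 were MpNAC2 (Mp6g02590, 0.907), MpBHLH15 (Mp6g18480, 0.904) and MpRLK-Pelle_RLCK-Xva (Mp1g06660, 0.882). Most like MpPEX11b were MpDOXC2 (Mp1g11700, 0.939), MpPLATZ2 (Mp1g07250, 0.936) and its relative MpPEX11 (0.917). Each of the genes except MpATG14 had 1 autophagy or peroxin gene among its 3 nearest. The share of such genes among the 1800 was not counted. All of the nearest genes had a higher estimate on the second day, by 0.25 to 0.80 (log2). The libraries share depth and the climb over time, so r is only a measure of likeness here.

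Genes with neighbouring identifiers, which can share reads where annotations overlap, had r between −0.70 and 0.54 with the 4 genes. MpATG8a had r = 0.12 with MpSMA1 (Mp1g21580) before it and 0.14 with MpLTPG2 (Mp1g21600) after it. With the second after it, MpNPF1 (Mp1g21610), r was 0.53, at a mean of 4.13 CPM and a log2 difference between the days of 0.38. MpATG8b had r = −0.50 with MpSRI1 (Mp5g05920), while Mp5g05935 on its other side had a mean of 0.0762 CPM. The light signalling gene MpBBX1 (Mp5g05940), next in line, had r = −0.17 with MpATG8b and a log2 difference between the days of 0.40. MpATG14 had r = −0.52 with Mp1g00080 −0.11 with MpRRT2 (Mp1g00100) and −0.67 with the second after it, Mp1g00110. MpPEX11b had r = 0.54 with Mp1g26700, whose difference between the days was 0.47 at a mean of 39.7 CPM, −0.70 with Mp1g26720, at −0.31, and −0.21 with the second after it, Mp1g26730.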

How the data were processed

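The authors deposited whole-number counts per gene, not normalized, for 24 libraries. Per the labels' protocols these were stranded TruSeq libraries with poly(A) selection. Aligner, counting program, strand setting and genome build were not given in the sources used here, so overlapping and near-identical genes may share reads. Symbols were taken from RefSeq's genes for MpTak2_v7.1 by matching the digits of each locus tag (17641 of 20574 identifiers matched, 3091 with a symbol); no coordinate of it was used, and a gene renumbered between annotation versions would carry a wrong name.

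Counts were analysed with edgeR 4.0.16 in R 4.3.3. Genes kept by filterByExpr (times as groups, minimum count 10) were scaled by TMM (factors 0.932 to 1.10). Quasi-likelihood F-tests with Benjamini-Hochberg adjustment over all 14414 genes, threshold 0.05, were run for a 24 h cosine and sine beside a linear term, for the mean of 48 to 66 h minus that of 24 to 42 h, and for any difference between 8 time means. SE are the estimate divided by the root of its F. For a rhythm size this F is that of a cosine turned to the gene's own fitted peak, not that of the rhythm test. Such an SE leaves out the choice of peak, and a size cannot be below 0, so it makes a size look firmer than the test does. Correlations used log2 CPM with a prior count of 2. Tests were checked on simulated data, with planted changes larger than those of the list genes and no drift in the rhythmic genes. That check does not cover changes as small as those of the lists, or a rhythm on top of a climb. DESeq2 1.42.0, RLE scaling, no filter, a replicate block, other drift terms and periods, and leaving out libraries were alternatives.

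The 4 genes and the lists were chosen with earlier results of these data known. Of the autophagy list 24 of 29 symbols were found, of the peroxin list 17 of 20, and of 13 symbols for other peroxisome proteins 0; symbols of unclear meaning were not used. The rule for naming took the 4 genes, the list genes called in any test, the neighbours of the 4 by identifier, and for each of the 4 the 3 most correlated genes with a symbol. The 15 list genes not called, and the second identifiers after each of the 4, fall outside it and were named after their values were seen. Replicates of 1 time differed by more than counting noise (chi-square per degree of freedom 12.3 to 168). No transcript lengths were used, so the ratio of ATG8 counts compares libraries and does not say which gene has the higher level.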

Additional observations from a re-analysis of the deposited data

How the results depend on the processing

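The differences between the days were stable in direction: of 37 genes of the lists none changed sign past the threshold in the 29 other settings, and the list counts stayed at 14 to 16 autophagy and 6 to 10 peroxin genes higher. The rhythm depended on the drift term. Over all genes the 2700 calls became 4269 with a day term in place of the linear term, 1009 with both and 1712 with a 22 h period. In the lists the 1 call became 9 with a day term, 0 with both (edgeR, 1 at an unadjusted p under 0.05) and 0 with no drift term (edgeR, 6 at an unadjusted p under 0.05), and 1 to 2 on leaving out single libraries; DESeq2, run with the linear term alone, gave 1. The fitted rhythm of MpATG8a was 0.59 with a day term, 0.51 with both and 0.56 with none. That of MpATG8b was 0.77 with a day term and 0.72 with none, and that of MpPEX11b 0.23 and 0.21. On leaving out single libraries it was 0.15 to 0.29 for MpATG8a, the lowest without replicate 2 of 42 h. Over all settings that of MpATG14 was 0.08 to 0.21. The cause was not tested.

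The replicate number as a block gave 4892 genes that differed between the days (2639 higher and 2349 lower without it) and 21 in the lists (22 without it), the 1 lost being MpPEX5. Deviations from the time means of libraries with the same number correlated at −0.501 to 0.448 (median 0.00188), and with different numbers at −0.606 to 0.587 (median 0.0022). No pairing by number was seen in these values. With ranges this wide they cannot tell whether libraries of the same number shared a culture or batch. With 465 to 15481 counts of each of the 4 genes per library, counting error is largest for MpATG14, which had the fewest.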
